A study of Arabidopsis thaliana with 30 samples.

Results

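The ethanol to acetyl-CoA enzymes are considered here as 10 Arabidopsis thaliana genes, whose products together can carry ethanol, or acetaldehyde made from pyruvate, to acetyl-CoA. They are set by name, with no threshold on a measured value, and all 10 were among the 27417 genes of the count table. ADH1 (AT1G77120) and ADH2, also called HOT5 (AT5G43940), are alcohol dehydrogenase genes. PDC1 (AT4G33070), PDC2 (AT5G54960) and PDC3 (AT5G01330) encode pyruvate decarboxylases. ALDH2B4 (AT3G48000), ALDH2B7 (AT1G23800) and ALDH2C4 (AT3G24503) encode aldehyde dehydrogenases, and ACS (AT5G36880) and ACN1 (AT3G16910) encode acetate-activating enzymes. The libraries came from shoots of Col-0 wild-type plants, raised for 10 days on medium and then 5 days in ceramic granular soil. Over the next 3 days the pretreatment was given, as ethanol at 10 mM or as water alone, watering stopped, and shoots were taken at drought onset and 1, 3, 5 and 7 days later, written as days after drought onset (DAD). The design thus had 5 ethanol groups and 5 water groups of 3 libraries each, 30 libraries in all, and no group that was watered after 0 DAD.

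Alcohol dehydrogenase turns ethanol into acetaldehyde, and in plants short of oxygen it runs in the other direction, taking the acetaldehyde that pyruvate decarboxylase makes from pyruvate. Aldehyde dehydrogenases oxidise acetaldehyde to acetate, and acetyl-CoA synthetases activate acetate to acetyl-CoA, which feeds fatty acid synthesis in plastids and the glyoxylate cycle in peroxisomes. ADH1 is a textbook gene of the responses to low oxygen, cold, dehydration and abscisic acid in Arabidopsis. ADH2 belongs to another class: its product reduces S-nitrosoglutathione and acts with glutathione on formaldehyde, and ethanol is not its usual substrate.

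The question was whether the pretreatment, or the drought that followed it, changed the expression of these genes. Levels are given in CPM, the counts of a gene per 1000000 counts of its library after scaling between libraries. A gene was called changed at an adjusted p under 0.1, from edgeR's quasi-likelihood test with Benjamini-Hochberg adjustment over the 19249 genes that passed a filter on low counts. Of the 10 genes, 9 passed the filter and were tested, and PDC3 was not. An SE or a 95% interval given with a log2 fold change was derived from that fold change and the statistic of the same test. It therefore carries no evidence beyond the unadjusted p. Comparisons that share a group of libraries, such as those against 0 DAD, are not independent of each other. Whether the libraries of compared groups overlapped is given as a description only. The share of all tested genes without overlap was not counted for any comparison. Library totals ran between 3625884 and 14735127 counts, with the lowest in ethanol 0 DAD. The labels do not say whether replicates were separate plants or pots, so the p-values measure the spread between these samples.

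Some libraries stood apart within their groups. RD29B (AT5G52300, LTI65 in RefSeq), a gene switched on by dehydration and abscisic acid, had 15.3, 335 and 14.9 CPM in ethanol 7 DAD replicates 1, 2 and 3, against 2290, 2600 and 2230 CPM in water 7 DAD. In water 0 DAD, replicate 1 was the highest for ADH1 (27.3 CPM, against 11.9 and 9.45 CPM in replicates 2 and 3) and for PDC1 (13 CPM, against 5.39 and 1.03 CPM). Results are therefore also given without ethanol 7 DAD replicate 2 or water 0 DAD replicate 1 where they depend on either. The 4 leaf markers fixed for the tissue check summed to between 26200 and 30100 CPM in ethanol 7 DAD and between 3840 and 6470 CPM in water 7 DAD, against 48000 to 60300 CPM in water 0 DAD. The 5 root markers summed to at most 6.72 CPM in any library. The 4 flower markers summed to between 81.9 and 98.5 CPM in ethanol 7 DAD and between 33.8 and 45.3 CPM in water 7 DAD, and the 3 seed markers were at 0 in water 7 DAD. The leaf and flower markers thus moved with the contrast at 7 DAD, and their part in the results was not tested. In whole shoots, fewer cells of a type and less RNA per cell cannot be told apart.

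ADH1 lies on chromosome 1 at 28975255 to 28977417 (+ strand, 7 exons) and ADH2 on chromosome 5 at 17684156 to 17686534 (+ strand, 9 exons), in TAIR10.1 coordinates of the RefSeq annotation. ALDH2B4 lies on chromosome 3 at 17716864 to 17720169 (- strand, 11 exons), ALDH2B7 on chromosome 1 at 8412051 to 8414886 (- strand, 10 exons) and ALDH2C4 on chromosome 3 at 8919560 to 8923296 (- strand, 9 exons). PDC1 lies on chromosome 4 at 15952257 to 15954803 (- strand, 5 exons), PDC2 on chromosome 5 at 22310553 to 22312832 (- strand, 1 exon) and PDC3 on chromosome 5 at 132264 to 134920 (- strand, 5 exons). ACS lies on chromosome 5 at 14534585 to 14540441 (- strand, 19 exons) and ACN1 on chromosome 3 at 5772743 to 5775841 (- strand, 3 exons). All are protein-coding genes, none overlaps a gene on its own strand, and counting used strand.

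The upstream sequences of 4 genes are shown because these genes had the smallest adjusted p-values or the opposite direction at 7 DAD: ADH1, ALDH2B4 and ALDH2B7 were lower in ethanol, and ADH2 was higher. Each is the 300 bases before the annotated gene start in the RefSeq annotation of TAIR10.1, written 5′ to 3′ on the gene's strand. They lie at chr1:28974955-28975254 on the + strand for ADH1, chr3:17720170-17720469 on the - strand for ALDH2B4, chr1:8414887-8415186 on the - strand for ALDH2B7 and chr5:17683856-17684155 on the + strand for ADH2. Capitals mark matches on either strand to CACGTG (the G-box), ACGTG (the core of the abscisic acid response element, which every G-box contains), CCGAC (the core of the dehydration response element) and AAACCA (the anaerobic response element).
ADH1: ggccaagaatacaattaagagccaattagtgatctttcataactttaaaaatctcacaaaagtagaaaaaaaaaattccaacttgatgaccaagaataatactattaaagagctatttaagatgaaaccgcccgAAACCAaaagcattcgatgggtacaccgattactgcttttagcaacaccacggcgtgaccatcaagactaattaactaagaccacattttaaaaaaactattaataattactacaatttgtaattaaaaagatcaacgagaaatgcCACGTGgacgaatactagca
ALDH2B4: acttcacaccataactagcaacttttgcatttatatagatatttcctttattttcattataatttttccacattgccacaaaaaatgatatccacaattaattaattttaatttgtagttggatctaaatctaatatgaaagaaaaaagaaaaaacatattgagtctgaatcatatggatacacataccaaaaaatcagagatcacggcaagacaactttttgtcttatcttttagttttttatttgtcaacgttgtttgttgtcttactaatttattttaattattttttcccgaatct
ALDH2B7: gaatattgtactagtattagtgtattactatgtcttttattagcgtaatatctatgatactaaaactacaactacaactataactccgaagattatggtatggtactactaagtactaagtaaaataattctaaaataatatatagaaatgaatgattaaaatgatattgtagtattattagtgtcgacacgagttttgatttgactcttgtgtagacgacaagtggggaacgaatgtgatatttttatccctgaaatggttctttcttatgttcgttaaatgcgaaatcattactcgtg
ADH2: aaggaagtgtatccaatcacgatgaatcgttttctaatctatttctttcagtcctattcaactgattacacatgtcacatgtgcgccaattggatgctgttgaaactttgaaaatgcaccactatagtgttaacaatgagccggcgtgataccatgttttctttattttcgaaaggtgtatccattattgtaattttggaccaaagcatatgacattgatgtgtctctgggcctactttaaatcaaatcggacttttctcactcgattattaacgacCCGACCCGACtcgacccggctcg
ADH1 had a G-box 20 bases and an AAACCA 166 bases before its start, ADH2 had adjoining CCGAC matches 23 and 18 bases before its start, and the windows of ALDH2B4 and ALDH2B7 held none of the 4 motifs. Among the windows of all 27443 nuclear protein-coding genes, 7.09% held a G-box, 25.6% an ACGTG, 13.9% a CCGAC and 31.8% an AAACCA. Of the 10 genes, 2 had a G-box (ADH1 and PDC2), 5 an ACGTG, 3 a CCGAC and 2 an AAACCA (ADH1 and PDC1). A match is a description of letters and not a binding site.

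At 7 DAD, 7 of the 9 tested genes were called between ethanol and water, 1 higher (ADH2) and 6 lower (ADH1, PDC1, PDC2, ALDH2B4, ALDH2B7 and ALDH2C4) in ethanol. Over all tested genes 60.5% were called in this comparison, so a count of 7 of 9 is not far from the background. The median log2 fold change was -0.75 over the 9 genes and 0.05 over all tested genes. With library totals in place of the scaling, the median over all genes at 7 DAD became 0.26, 7316 genes were called higher and 4305 lower (6152 and 5501 with the scaling), and the call of PDC1 and that of PDC2 were lost.

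ADH1 had 19.2, 29.4 and 17.8 CPM in ethanol 7 DAD, against 605, 1140 and 828 CPM in water 7 DAD. Every water library lay far above every ethanol library, and replicate 2 was the highest of each group. The fitted log2 fold change was -5.28 (SE 0.311, edgeR adjusted p 3.71e-14), which is 38.8-fold lower in ethanol. Leaving out ethanol 7 DAD replicate 2, the highest of its group, gave -5.51. At the earlier harvests ADH1 lay between 9.76 and 23.3 CPM in ethanol and between 9.45 and 40.2 CPM in water. Taken within each library, which needs no scaling, the count of ADH1 was 0.0614 to 0.0929 times that of ADH2 in ethanol 7 DAD and 2.72 to 7.1 times that of ADH2 in water 7 DAD. Part of this gap lies in ADH2, which was itself 1.57-fold higher in ethanol than in water at 7 DAD.

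ADH2, which encodes S-nitrosoglutathione reductase, was the only one of these genes called higher in ethanol at 7 DAD. It had 312, 316 and 280 CPM in ethanol 7 DAD, against 223, 160 and 197 CPM in water 7 DAD. The groups did not overlap, and the lower values were those of water. Its log2 fold change was 0.65 (SE 0.117, edgeR adjusted p 2.61e-05), or 1.57-fold higher. At the earlier harvests it lay between 261 and 339 CPM in ethanol and between 259 and 347 CPM in water, so the libraries of water 7 DAD were the lowest of the series.

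The aldehyde dehydrogenases all had lower levels in ethanol than in water at 7 DAD. ALDH2B4, a mitochondrial enzyme, had 151, 189 and 138 CPM in ethanol 7 DAD, against 499, 652 and 559 CPM in water 7 DAD. Its log2 fold change was -1.84 (SE 0.125, edgeR adjusted p 6.4e-13), 3.58-fold lower. No ethanol library reached the lowest water library, and of the ethanol 7 DAD libraries only replicate 2 lay outside the 135 to 180 CPM of the earlier harvests in both pretreatments. ALDH2B7, also mitochondrial, had 6.28, 8.75 and 9.48 CPM in ethanol 7 DAD, against 34.2, 38.8 and 21.2 CPM in water 7 DAD. It had a log2 fold change of -1.93 (SE 0.283, edgeR adjusted p 1.22e-06), 3.82-fold lower, and the groups did not overlap. ALDH2C4, a cytosolic enzyme known also for the oxidation of sinapaldehyde and coniferaldehyde, had 44.6, 46.2 and 47.0 CPM in ethanol 7 DAD, against 69.0, 95.7 and 67.5 CPM in water 7 DAD. Its log2 fold change was -0.75 (SE 0.174, edgeR adjusted p 0.00055), and its 3 ethanol values lay close together below all 3 water values.

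**Figure D1:**
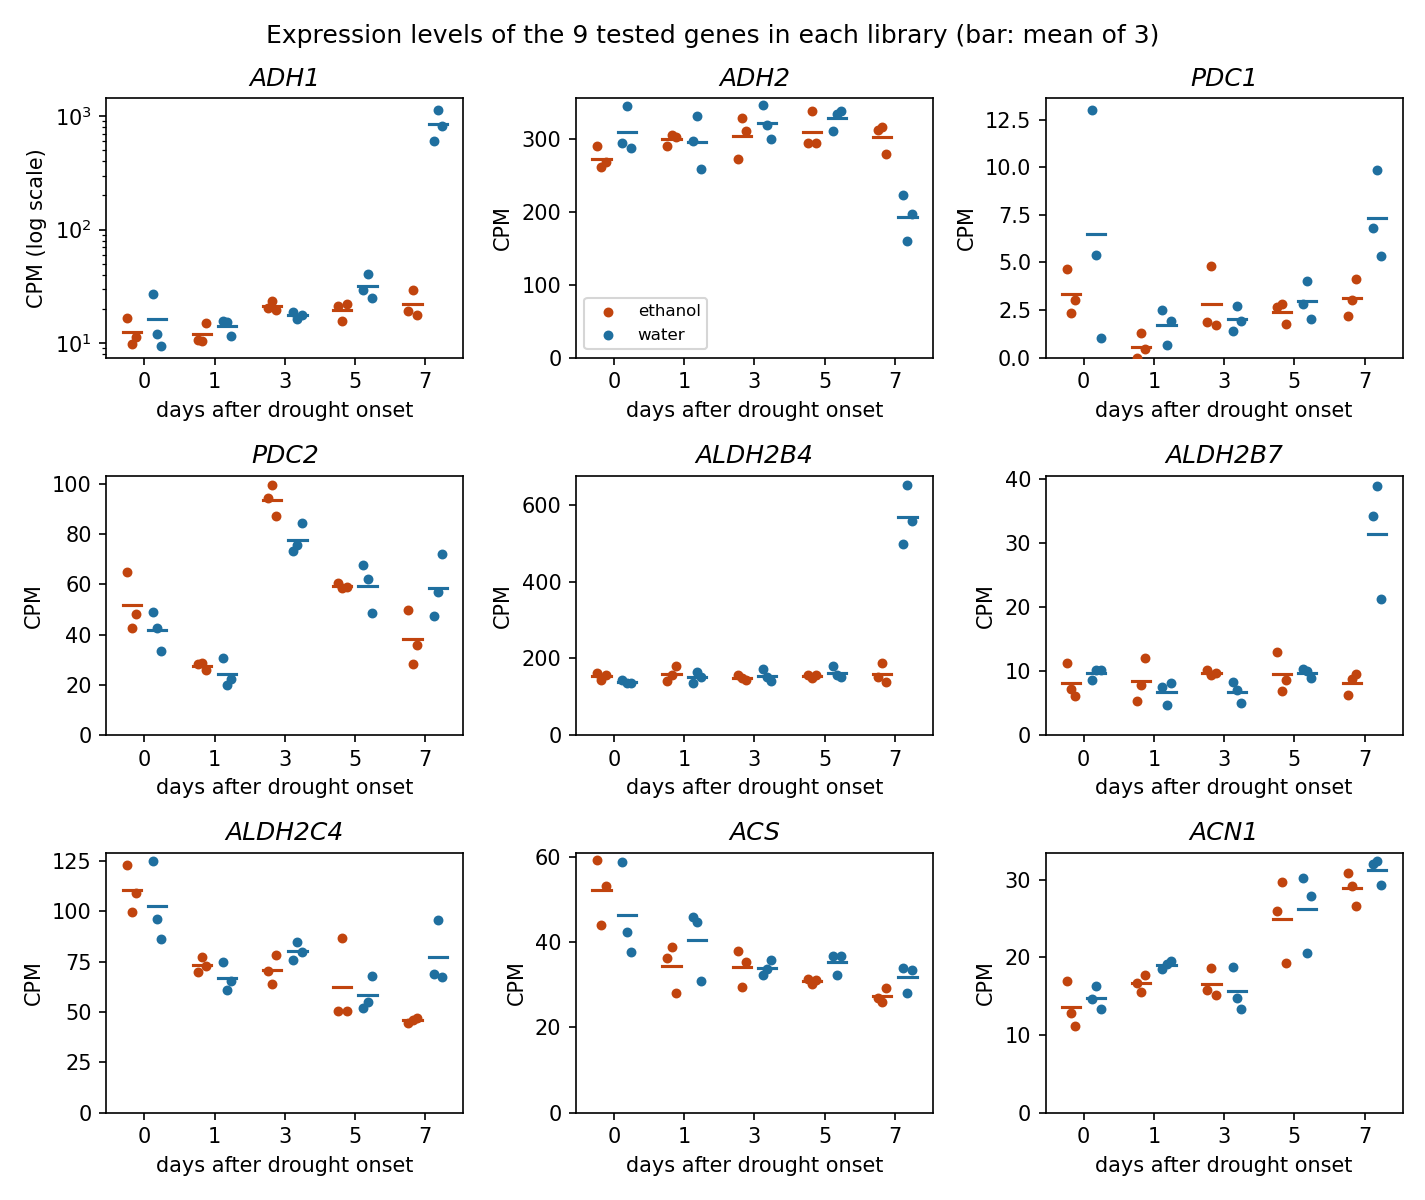
Level of each of the 9 tested genes in every library, in CPM (log scale for ADH1 only), against days after drought onset, with ethanol in orange to the left of water in blue and a bar at the mean of 3 libraries. At 7 DAD ADH1, ALDH2B4 and ALDH2B7 average 22.1, 159 and 8.17 CPM in ethanol and 857, 570 and 31.4 CPM in water, whereas ACS is lower and ACN1 higher at 7 DAD than at 0 DAD in both pretreatments.

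Pyruvate decarboxylase genes gave weaker calls. PDC2 had 49.9, 28.3 and 36.0 CPM in ethanol 7 DAD, against 47.3, 56.8 and 71.9 CPM in water 7 DAD. The groups overlapped in ethanol replicate 1, and the log2 fold change was -0.62 (SE 0.191, edgeR adjusted p 0.00663). It was -0.43 without ethanol 7 DAD replicate 2, with the call kept, and -0.40 with library totals, where the call was lost (adjusted p 0.103). PDC1 was near the limit of the depth, with 20, 27 and 48 counts in ethanol 7 DAD and 57, 62 and 47 counts in water 7 DAD. In CPM these were 2.17, 3.03 and 4.14 in ethanol and 6.84, 9.89 and 5.36 in water. Its log2 fold change of -1.23 (SE 0.623, 95% interval -2.50 to 0.05, which includes 0) had an edgeR adjusted p of 0.0979, and the call was lost in 7 of 12 alternative fits, in which the value ran between -1.47 and -0.94. Those 7 were the fits with library totals and with a replicate block and those without ethanol replicate 1, 2 or 3 or water replicate 1 or 2.

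PDC3 had 57 counts over the 30 libraries, with 14 of them in water 5 DAD replicate 3, and 0 counts in 14 libraries. At 7 DAD it had 0, 0 and 3 counts in ethanol and 0 counts in all 3 water libraries, where 3 counts, the limit that a count of 0 allows, would be 0.342 to 0.479 CPM per library. A difference in PDC3 was not detectable at this depth. Counts of PDC1 and PDC3 are uncertain to the extent that reads were split between copies: the coding sequence of PDC3 was 86.6% identical to that of PDC1, and the transcript of PDC3 matched that of PDC4 (AT5G01320) at 90.8% over 1923 bases. None of the 10 genes had an alignment of 100 or more bases to another annotated transcript with 95% or more identity over its whole length. Stretches within longer alignments were not scanned, so shorter near-identical stretches may exist.

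The acetate-activating genes were not called at 7 DAD. ACS, which encodes the plastidial acetyl-CoA synthetase, had 26.9, 26 and 29.2 CPM in ethanol 7 DAD, against 34, 28.2 and 33.5 CPM in water 7 DAD. Its log2 fold change was -0.22, with a 95% interval between -0.56 and 0.12 (edgeR adjusted p 0.272). ACN1, which encodes a peroxisomal acetyl-CoA synthetase needed for growth on acetate, had 30.9, 29.2 and 26.6 CPM in ethanol 7 DAD, against 32, 32.4 and 29.4 CPM in water 7 DAD. Its log2 fold change was -0.11, with a 95% interval between -0.46 and 0.23 (edgeR adjusted p 0.593). The groups overlapped for each gene.

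**Figure D2:**
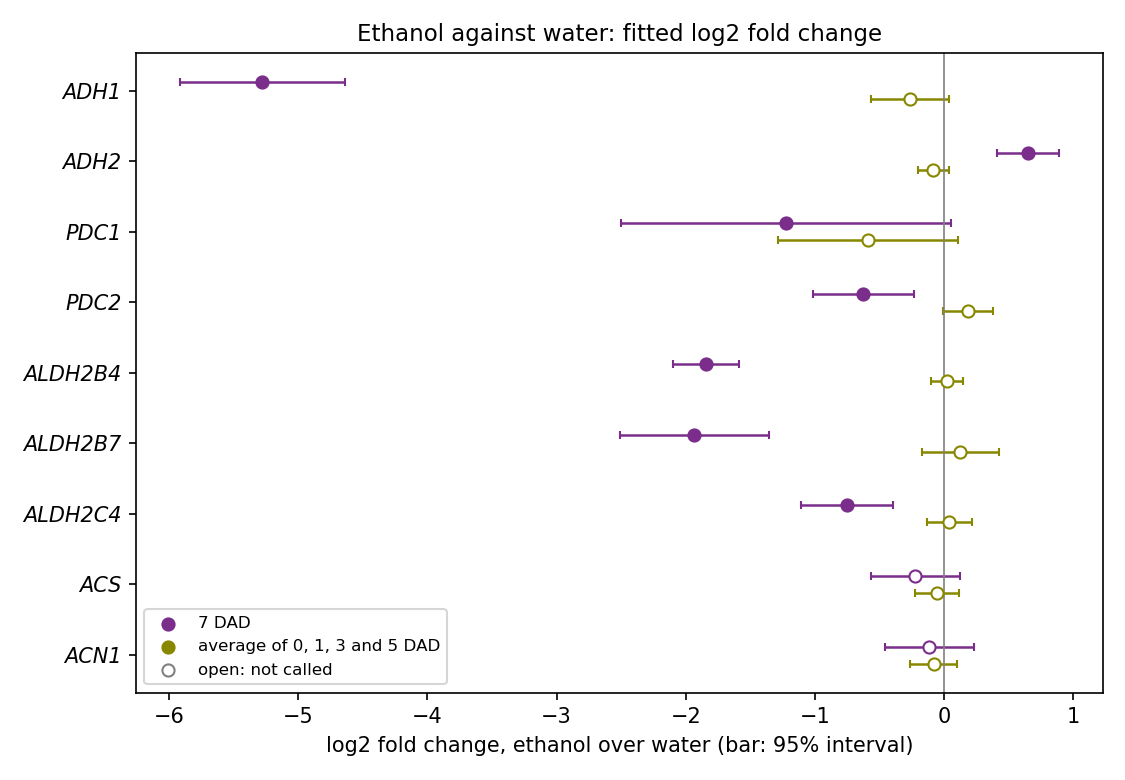
Fitted log2 fold change of ethanol over water for each tested gene at 7 DAD (purple) and averaged over 0, 1, 3 and 5 DAD (olive), with bars for the 95% interval, filled points for called genes and open points for the rest. At 7 DAD the values run between -5.28 for ADH1 and 0.65 for ADH2, and all 9 averages of the earlier days lie between -0.59 and 0.19 with intervals that include 0.

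The harvest at 0 DAD, directly after 3 days of ethanol, addressed whether the pretreatment alone went with a change in these genes in shoots at that time. Roots and earlier hours of the pretreatment were not among these libraries. Ethanol 0 DAD replicates 1 and 2 had the lowest totals of the series (3625884 and 4037295 counts), which limits what could be called. None of the 9 was called (0 at an unadjusted p under 0.05), against 1.71% of all tested genes. ADH1 had 16.7, 9.76 and 11.4 CPM in ethanol 0 DAD, against 27.3, 11.9 and 9.45 CPM in water 0 DAD. The groups overlapped, and the log2 fold change of -0.40 (95% interval -1.04 to 0.23) became 0.23 without water 0 DAD replicate 1, the library with most ADH1 among the 6. Over the 6 fits without 1 of these libraries it ran between -0.68 and 0.23. ALDH2B4 had 162, 145 and 156 CPM in ethanol 0 DAD, against 144, 136 and 135 CPM in water 0 DAD. Its groups did not overlap, which was not counted over all tested genes, and its log2 fold change was 0.15 (95% interval -0.10 to 0.41, edgeR adjusted p 0.653). PDC1 had the value farthest from 0, -0.97, which became 0.08 when water 0 DAD replicate 1 was left out and ran down to -1.47 without another of the 6 libraries. For the others the log2 fold changes at 0 DAD were -0.18 for ADH2, 0.31 for PDC2, -0.27 for ALDH2B7, 0.11 for ALDH2C4, 0.17 for ACS and -0.13 for ACN1.

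Nor was any of the 9 called between ethanol and water at 1, 3 or 5 DAD, where 0%, 0.992% and 0% of all tested genes were called. At an unadjusted p under 0.05 the counts were 0 of 9 at 1 DAD, 0 at 3 DAD and 1 at 5 DAD, against 587, 1457 and 783 of all tested genes. The 1 gene was ADH1, with 21.1, 15.7 and 22.3 CPM in ethanol 5 DAD, against 29.4, 40.2 and 25.1 CPM in water 5 DAD. Every water library lay above every ethanol library, with a log2 fold change of -0.67 (95% interval -1.23 to -0.10), but the edgeR adjusted p was 1. At 3 DAD, in contrast, every ethanol library lay above every water library for ADH1 (0.26), PDC2 (0.27) and ALDH2B7 (0.53). Groups without overlap were lower in ethanol for ACN1 at 1 DAD (-0.19) and for ACS at 5 DAD (-0.19). Such separation was not counted over all tested genes. PDC1 at 1 DAD had -1.53 (95% interval -3.09 to 0.03, unadjusted p from edgeR 0.0545, adjusted p 1).

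Averaged over 0, 1, 3 and 5 DAD, again 0 of 9 were called (0 at an unadjusted p under 0.05), against 0.499% of all tested genes. Its 95% interval was -0.10 to 0.15 for ALDH2B4, -0.20 to 0.04 for ADH2, -0.14 to 0.22 for ALDH2C4 and -0.23 to 0.11 for ACS. For ADH1 the log2 value was -0.26 (-0.56 to 0.04), for PDC2 0.19 (-0.01 to 0.38) and for PDC1 -0.59 (-1.28 to 0.11).

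In water, 8 of the 9 genes were called at 7 DAD against 0 DAD, 5 higher and 3 lower, where 70% of all tested genes were called. Plant age and time of harvest differ between days along with drought, and these cannot be told apart here. ADH1 reached 605 to 1140 CPM in water 7 DAD, against 9.45 to 27.3 CPM in water 0 DAD, a log2 fold change of 5.70 (SE 0.319, edgeR adjusted p 3.8e-15) or 52-fold higher. It was 6.33 when water 0 DAD replicate 1 was left out. ALDH2B4 was 4.12-fold and ALDH2B7 3.26-fold higher in water 7 DAD than in water 0 DAD (log2 fold changes 2.04 and 1.70), with no overlap between the groups. Both mitochondrial aldehyde dehydrogenase genes thus rose along with ADH1. ACN1 had 32, 32.4 and 29.4 CPM in water 7 DAD, against 14.7, 16.3 and 13.3 CPM in water 0 DAD (log2 fold change 1.08). PDC2 was called higher (0.49, edgeR adjusted p 0.0258) with overlapping groups, and lost its call without water 0 DAD replicate 3 (0.35) or water 7 DAD replicate 3 (0.31). ADH2 fell by 0.68 on the log2 scale, ACS fell by 0.54 and ALDH2C4 fell by 0.41. ALDH2C4 lost its call without water 0 DAD replicate 1 (-0.24) or water 7 DAD replicate 3 (-0.32), and PDC1 was not called, with a log2 value of 0.17 and an interval between -1.06 and 1.40 (1.22, also not called, when water 0 DAD replicate 1 was left out).

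In ethanol, 5 of the 9 genes were called at 7 DAD against 0 DAD, 2 higher and 3 lower, where 41.5% of all tested genes were called. ACN1 had 30.9, 29.2 and 26.6 CPM in ethanol 7 DAD, against 16.9, 12.9 and 11.1 CPM in ethanol 0 DAD (log2 fold change 1.10, SE 0.183, edgeR adjusted p 1.94e-05). ALDH2C4 had 44.6, 46.2 and 47.0 CPM in ethanol 7 DAD, against 123, 99.7 and 109 CPM in ethanol 0 DAD (-1.27, SE 0.176, edgeR adjusted p 1.42e-06). ACS had 26.9, 26 and 29.2 CPM in ethanol 7 DAD, against 59.3, 44.0 and 53.3 CPM in ethanol 0 DAD (-0.93, SE 0.168, edgeR adjusted p 6.22e-05). The groups did not overlap for these 3 genes, which was not counted over all tested genes. ADH1 was called with 0.83 (edgeR adjusted p 0.0361), which became 0.57 and lost its call without ethanol 7 DAD replicate 2, and it lost its call without ethanol 0 DAD replicate 2 (0.70) or 3 (0.74) too. PDC2 was called lower (-0.44, edgeR adjusted p 0.0771) and lost its call in 5 of 12 alternative fits, among them those that left out ethanol 0 DAD replicate 1 (-0.27) or replicate 2 (-0.28) or 3 (-0.41) of ethanol 7 DAD. For ALDH2B4, ALDH2B7 and ADH2 the log2 values were 0.05, 0.04 and 0.15, with intervals of -0.20 to 0.30, -0.58 to 0.66 and -0.09 to 0.39. With library totals ADH2 (0.36) and ALDH2B4 (0.26) were called higher.

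**Figure D3:**
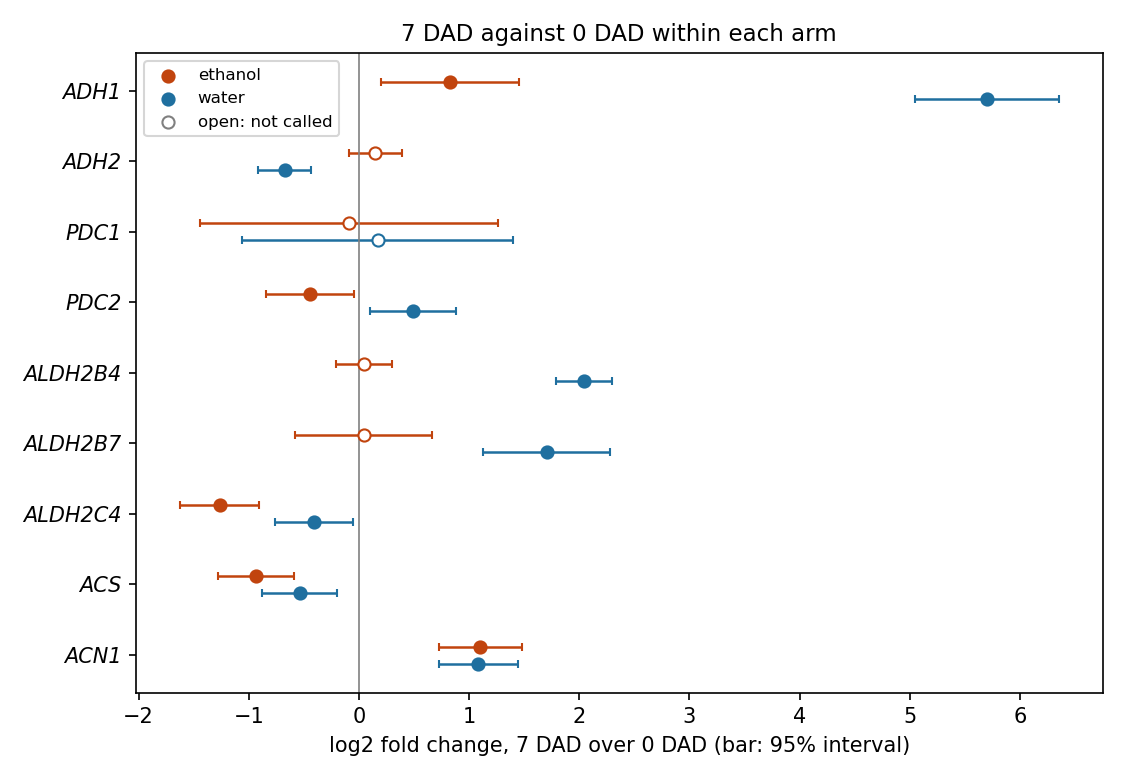
Fitted log2 fold change of 7 DAD over 0 DAD in ethanol (orange, upper) and in water (blue, lower), with bars for the 95% interval, filled points for called genes and open points for the rest. ACN1 lies at 1.10 in ethanol and 1.08 in water, whereas ADH1 lies at 0.83 in ethanol and 5.70 in water.

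The difference between these drought responses was tested directly. It was called for 6 of the 9 genes, against 50.8% of all tested genes. Counting the change between 7 and 0 DAD, ADH1 had the lowest difference, ethanol minus water (-4.87, SE 0.424, edgeR adjusted p 2.8e-10, and -5.51 without water 0 DAD replicate 1), and ALDH2B4 and ALDH2B7 had differences of -2.0 and -1.66. ALDH2C4 had a difference of -0.86 and PDC2 of -0.94, and ADH2, which fell in water, had 0.83. ACN1 had a difference of 0.02 with a 95% interval between -0.50 and 0.53, and ACS had -0.39 with an interval between -0.87 and 0.09 (-0.61 and called without water 0 DAD replicate 1). Counted between 7 and 5 DAD the difference was called for the same number of genes, 6 of 9, against 47.1% of all tested genes.

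In water ADH1, ALDH2B4 and ALDH2B7 rose mostly between the last 2 harvests, whereas ACN1 (0.25) and PDC2 (-0.02) were not called between them. At 7 DAD against 5 DAD in water, 6 of the 9 genes were called, 5 higher and 1 lower, where 64.5% of all tested genes were called. ADH1 had 605 to 1140 CPM in water 7 DAD, against 25.1 to 40.2 CPM in water 5 DAD, a 27.2-fold rise. ALDH2B4 rose 3.49-fold and ALDH2B7 3.22-fold, each without overlap. PDC1 (log2 1.31, edgeR adjusted p 0.074) and ALDH2C4 (0.41, edgeR adjusted p 0.0444) were also called, ALDH2C4 with overlapping groups. PDC1 lost its call with library totals (1.18) and without water 5 DAD replicate 1 (1.27) or 3 (1.06) or water 7 DAD replicate 1 (1.32) or 2 (1.01). ALDH2C4 lost its call with library totals (0.26) and without water 5 DAD replicate 1 (0.33) or 2 (0.37) or water 7 DAD replicate 2 (0.20). ADH2 was the gene called lower (-0.76). In ethanol 1 of 9 was called at 7 DAD against 5 DAD, against 8.5% of all tested genes. It was PDC2, with 49.9, 28.3 and 36.0 CPM in ethanol 7 DAD, against 60.4, 58.6 and 59.1 CPM in ethanol 5 DAD (log2 fold change -0.64, edgeR adjusted p 0.0441). The call was lost when replicate 2 of ethanol 7 DAD (-0.48) or replicate 3 of ethanol 5 DAD (-0.64) was left out.

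Earlier in the drought the changes were smaller, and several ran alike in both pretreatments. At 1 DAD against 0 DAD, 4 of 9 genes were called in ethanol and 3 of 9 in water, all lower, where 18.3% and 12.9% of all tested genes were called. PDC2 had 28.4, 28.5 and 25.7 CPM in ethanol 1 DAD, against 65.0, 42.5 and 48.3 CPM in ethanol 0 DAD, and 30.7, 20.0 and 22.4 CPM in water 1 DAD, against 49.1, 42.7 and 33.3 CPM in water 0 DAD. Its log2 fold changes were -0.91 in ethanol and -0.77 in water. PDC1 had 0, 1.29 and 0.428 CPM in ethanol 1 DAD and 2.48, 0.645 and 1.95 CPM in water 1 DAD, and was called lower than at 0 DAD in both (-2.42 and -1.85). In water its value was -0.81 and not called without water 0 DAD replicate 1, which held 155 of the 870 counts of PDC1 in the series, and the call was also lost without water 1 DAD replicate 2 (-1.56) or 3 (-1.93), with the compared groups alone (-1.83) and with a replicate block (-1.70). In ethanol the call was lost without ethanol 0 DAD replicate 1 (-2.15) or ethanol 1 DAD replicate 1 (-1.86) or 3 (-2.25), and the value was -3.98 without ethanol 1 DAD replicate 2. ALDH2C4 was called in both as well (-0.59 in ethanol and -0.61 in water), but not without ethanol 0 DAD replicate 1 (-0.51) in ethanol or without water 0 DAD replicate 1 (-0.44) in water, and ACS was called in ethanol (-0.60), but not without ethanol 1 DAD replicate 3 (-0.47).

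At 3 DAD PDC2 was higher than at 0 DAD. It had 94.5, 99.3 and 87.0 CPM in ethanol 3 DAD and 73.4, 75.6 and 84.2 CPM in water 3 DAD, its highest values of the series in either pretreatment. Against 0 DAD this was a log2 fold change of 0.85 in ethanol and 0.90 in water, without overlap in either. Of the 9 genes, 4 were called in ethanol and 3 in water at 3 DAD, where 24.6% and 19.6% of all tested genes were called. ACS was lower in both (-0.61 in ethanol and -0.45 in water), ALDH2C4 was lower in ethanol (-0.64), PDC1 in water (-1.67), and ADH1 was higher in ethanol (0.76). The call of ADH1 was lost in 7 of 12 alternative fits (between 0.63 and 0.97), among them those without ethanol 0 DAD replicate 2 or 3 or any ethanol 3 DAD library. The call of PDC1 was lost in 7 of 12 (between -2.17 and -0.62), among them those without water 0 DAD replicate 1 or 2 or any water 3 DAD library. The call of ACS in water was lost in 6 of 12 (between -0.58 and -0.24), among them those without water 0 DAD replicate 1 or any water 3 DAD library. Leaving out water 0 DAD replicate 1 gave -0.62 for PDC1 and -0.24 for ACS in water. It also gave 0.73 for ADH1 in water, which was then called higher (edgeR adjusted p 0.0974), against 0.09 and no call with all libraries.

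At 5 DAD, 3 of 9 genes in ethanol and 5 of 9 in water were called against 0 DAD, where 33.3% and 33% of all tested genes were called. ACN1 had 26, 29.7 and 19.3 CPM in ethanol 5 DAD and 30.3, 20.6 and 27.9 CPM in water 5 DAD, and was called higher than at 0 DAD in both (0.89 in ethanol and 0.83 in water). ALDH2C4 was called lower in both (-0.83 in ethanol and -0.81 in water), and so was ACS (-0.76 in ethanol and -0.39 in water). In water ADH1 was called higher (0.93), although water 0 DAD replicate 1, at 27.3 CPM, lay within the range at 5 DAD. Leaving out that library gave 1.57. In ethanol ADH1 had 0.67 and was not called (edgeR adjusted p 0.11), but it was called in 5 of 12 alternative fits: with library totals (0.82), without the filter (0.68), with the compared groups alone (0.66) and without ethanol 0 DAD replicate 1 (0.89) or ethanol 5 DAD replicate 2 (0.80). PDC2 was called higher in water (0.51) but lost the call without water 0 DAD replicate 3 (0.37) or water 5 DAD replicate 1 (0.41) or 2 (0.48). The call of ACS in water was lost in 7 of 12 alternative fits (between -0.52 and -0.18), among them those without water 0 DAD replicate 1 or any water 5 DAD library.

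Levels were compared between genes per kb of the longest RefSeq transcript, which assumes reads spread evenly along a transcript. That was not checked for these Lasy-Seq libraries. If reads come mainly from transcript ends, counts do not scale with length, and the order per kb does not hold. In ethanol 7 DAD the order of mean CPM per kb was ADH2 (210), ALDH2B4 (73.7), ALDH2C4 (23.6), PDC2 (16.7), ADH1 (13.9), ACN1 (11), ACS (9.73), ALDH2B7 (4.16) and PDC1 (1.41). In water 7 DAD it was ADH1 (538), ALDH2B4 (264), ADH2 (134), ALDH2C4 (39.8), PDC2 (25.7), ALDH2B7 (16.0), ACN1 (11.9), ACS (11.3) and PDC1 (3.33). In water 0 DAD ADH1 stood at 10.2 CPM per kb and ADH2, the highest, at 215. The ranges of the libraries overlapped in ethanol 7 DAD between PDC2 and ADH1, ADH1 and ACN1, and ACN1 and ACS, and in water 7 DAD between ALDH2B7 and ACN1, and ACN1 and ACS, so the order within those neighbours is not set. With the gene span in place of the transcript, 80 of 100 places in the 10 groups were kept, and in ethanol 7 DAD ALDH2C4 and PDC2 changed places. With no division by length, ADH1 (mean 22.1 CPM) in ethanol 7 DAD lay below ACN1 (28.9 CPM) and ACS (27.4 CPM). The other genes kept their order there. In water 7 DAD ACS (31.9 CPM), ALDH2B7 (31.4 CPM) and ACN1 (31.3 CPM) were almost level, and the genes above and below them kept their places.

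**Figure D4:**
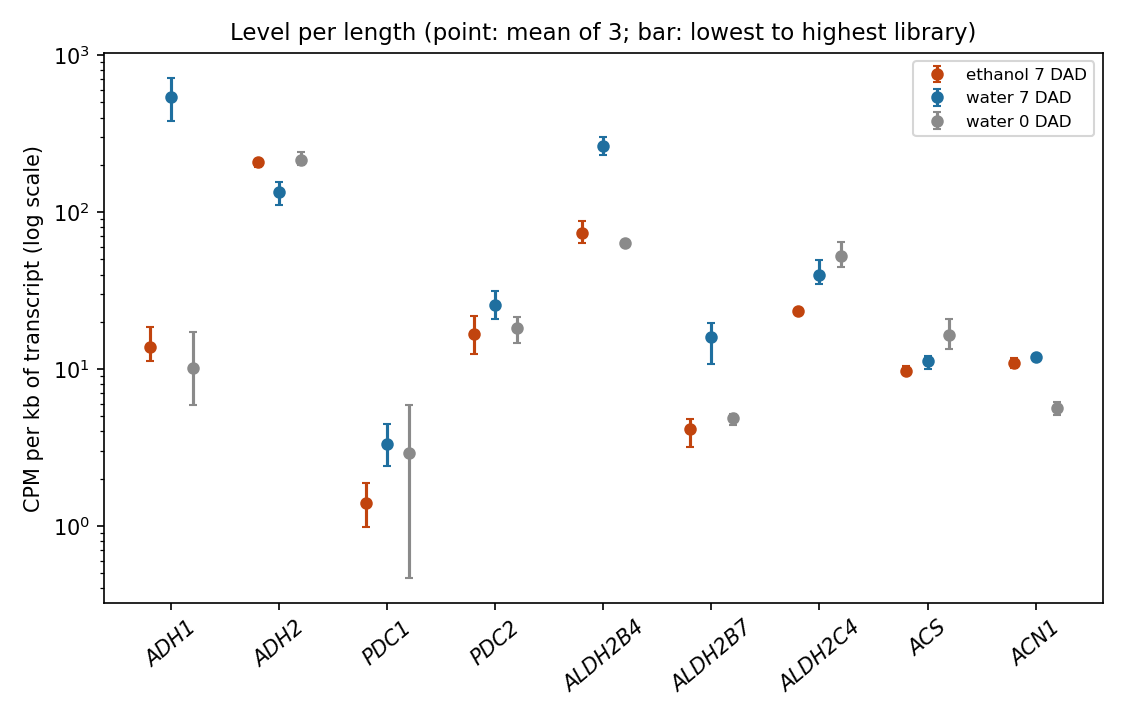
Mean CPM per kb of transcript on a log axis for the 9 tested genes in ethanol 7 DAD (orange), water 7 DAD (blue) and water 0 DAD (grey), with bars between the lowest and the highest of 3 libraries. ADH1 stands at 13.9 in ethanol 7 DAD, 538 in water 7 DAD and 10.2 in water 0 DAD. The order of genes assumes reads spread evenly along transcripts, which was not checked.

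Across the 10 group means of log2 CPM, the genes differed in how closely they followed each other. As a description over 10 groups, Pearson's r was 0.977 between ADH1 and ALDH2B4, 0.954 between ADH1 and ALDH2B7 and -0.868 between ADH1 and ADH2. The group means share libraries and depth across genes, and water 7 DAD stood apart from the other 9 groups in ADH1, ALDH2B4 and ALDH2B7. ACS had 0.838 with ALDH2C4 and -0.731 with ACN1. Among 17583 other genes, those with a pattern most like that of ADH1 were AT4G36210, AT3G14430, AT3G01590, AAP1 (AT1G58360, an amino acid permease) and RPT2a (AT4G29040, a proteasome subunit), with r between 0.994 and 0.996 over 10 groups. Over the 30 single libraries, 2 of these 5 were still among the top 5, and AAP1 was first with 0.983. For PDC1 the most alike were AT3G02190, AT3G02200 and MUB1 (AT3G01050), for ALDH2B7 AT5G61530, AT5G15400 and AT1G09920, and for ACS PGSIP6 (AT5G18480), AT4G21865 and AT3G07570. The highest r was 0.935 for PDC1, 0.992 for ALDH2B7 and 0.967 for ACS. Over the 30 single libraries 0 of 3 stayed in the top 3 for PDC1 (r 0.542 to 0.569), 0 of 3 for ALDH2B7 (0.787 to 0.831) and 1 of 3 for ACS (PGSIP6, 0.913).

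Other genes of the pathway were followed in lists at 7 DAD, ethanol against water, where 32% of all tested genes were called higher and 28.6% lower. Of 8 other pyruvate decarboxylase and alcohol dehydrogenase-like genes, 7 were tested and 4 were called, all higher, with a median log2 fold change of 0.57. The alcohol dehydrogenase-like AT5G42250 had 39.5, 34 and 36.3 CPM in ethanol 7 DAD, against 5.04, 3.19 and 4.33 CPM in water 7 DAD, the opposite direction to ADH1 (log2 3.11, edgeR adjusted p 9.08e-14). PDC4 (AT5G01320), another pyruvate decarboxylase gene, was called higher at low levels, with 2.17, 0.561 and 1.47 CPM in ethanol 7 DAD and 0.12, 0.16 and 0 CPM in water 7 DAD. AT1G22430 was not called (0.33), and AT1G22440 was not called, with at most 0.84 CPM in these libraries.

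Among 11 other aldehyde dehydrogenases, 4 were called higher and 5 lower in ethanol than in water at 7 DAD, with a median of -0.16. The lowest was ALDH7B4, a stress-inducible enzyme, with 192, 602 and 210 CPM in ethanol 7 DAD, against 2160, 2250 and 2480 CPM in water 7 DAD (log2 -2.78, edgeR adjusted p 1.66e-09). Its replicate 2 in ethanol stood above the others, as it did for RD29B. ALDH12A1, the pyrroline-5-carboxylate dehydrogenase of proline breakdown, had -1.25, ALDH22A1 had 0.97, and ALDH3F1 had 1.88, with 109, 98.4 and 105 CPM in ethanol against 35.6, 17.5 and 31.2 CPM in water. These other aldehyde dehydrogenases did not share a direction.

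Pyruvate dehydrogenase makes acetyl-CoA directly from pyruvate. Of its 7 plastidial genes 4 were called, all higher (median 1.15), and the highest, both genes of acetyltransferase subunits, were LTA2 (AT3G25860, log2 2.03) and EMB3003 (AT1G34430, 1.80). The E1 subunit genes PDH-E1 ALPHA (-0.00) and AT2G34590 (-0.06) were not called. LTA2 had 41.0, 31.3 and 49.1 CPM in ethanol 7 DAD, against 13.9, 10.5 and 5.47 CPM in water 7 DAD. Of the 8 mitochondrial genes 1 was called higher and 3 lower (median -0.11). Their dihydrolipoamide dehydrogenase genes went apart, with mtLPD1 at 0.36 and mtLPD2 at -1.21, AT1G54220 had -0.67 and AT3G13930 was not called (0.08). ATP citrate lyase makes cytosolic acetyl-CoA from citrate, and of its 5 genes 4 were called higher and 1 lower (median 0.31), with ACLA-2 at 1.58, ACLB-2 at 0.93, ACLA-1 at 0.30 and ACLA-3 at -0.36.

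ADH1 and PDC1 belong to the core response to low oxygen, so 12 other genes of that response were examined. Of the 11 tested, 3 were called in ethanol against water at 7 DAD, all lower (median -0.69), where 28.6% of all tested genes were called lower and 32% higher. SUS1, a sucrose synthase also known to respond to dehydration, had 43.3, 58.4 and 42.3 CPM in ethanol 7 DAD, against 359, 646 and 502 CPM in water 7 DAD (log2 -3.39, edgeR adjusted p 1.39e-11). HB1, a haemoglobin, had -2.04 and the transcription factor gene HRE1 -1.33 (named after its value was seen). Against water 0 DAD, HB1 (-0.49) and HRE1 (0.09) were not called in water 7 DAD, whereas SUS1 was called higher (4.24). In water at 7 DAD against 0 DAD, 1 of the 11 was called higher and 2 lower, and the one higher was SUS1, where 34.5% of all tested genes were called higher and 35.5% lower. ETR2 (0.83) and SAD6 (0.30) were not called between ethanol and water at 7 DAD. The lower median of the 11 in ethanol was not seen at 3 DAD, where it was 0.74 with 1 gene called higher. At 0, 1 and 5 DAD the medians were 0.06, -0.11 and 0.11, with none called.

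**Figure D5:**
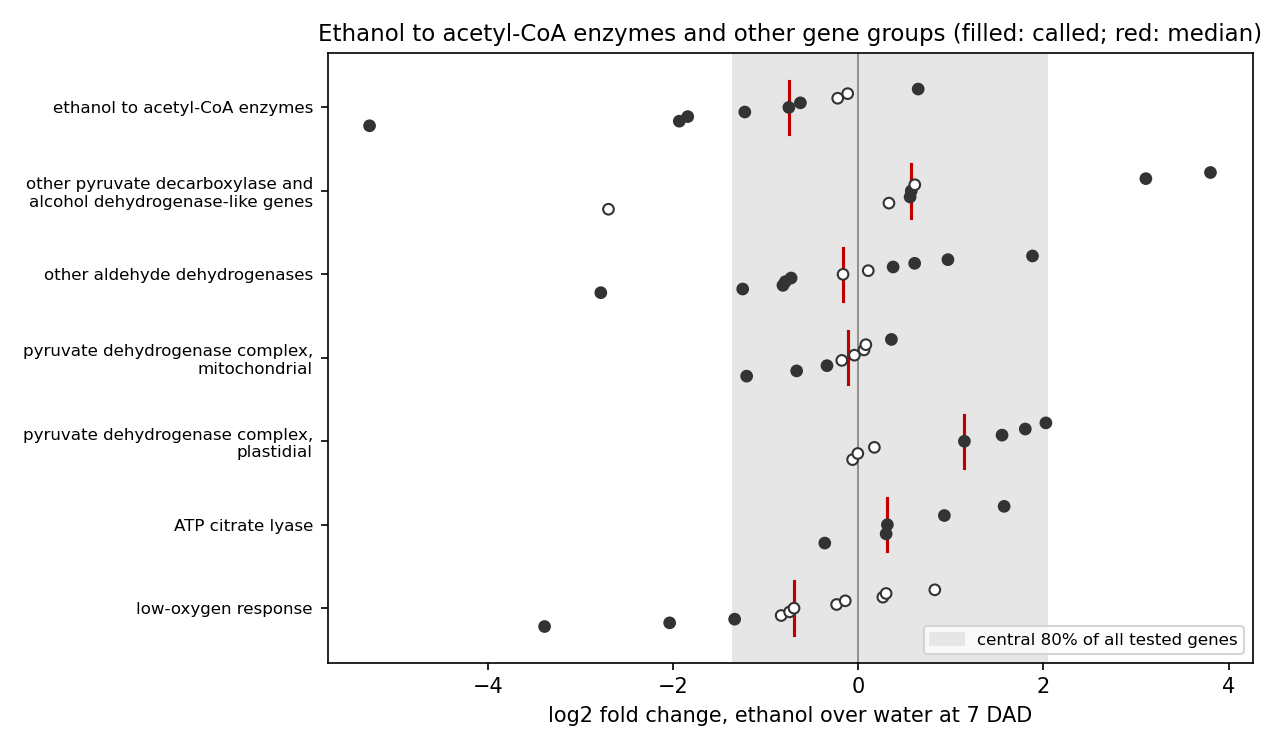
Fitted log2 fold change of ethanol over water at 7 DAD for each tested gene of the ethanol to acetyl-CoA enzymes (top row) and of 6 other gene groups, with filled points for called genes, open points for the rest, a red bar at the median and a grey band over the central 80% of all tested genes. ADH1 at -5.28 is the lowest point, and the medians run between -0.75 for the ethanol to acetyl-CoA enzymes and 1.15 for plastidial pyruvate dehydrogenase.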

How the data were processed

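RNA of 30 shoot libraries was sequenced with Lasy-Seq, a stranded and multiplexed protocol. Per the study's methods the authors trimmed read 1 with Trimmomatic, used HISAT2 for alignment to TAIR10, and took stranded counts of primary alignments per gene, introns included, from featureCounts; their versions are left out here. The deposited raw counts were used. The deposited normalised signal was only checked: within each library it equalled the count over the DESeq2 size factor (ratio 1).

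Of 27417 genes, 19249 passed edgeR's filterByExpr by group (99.95% of counts kept). Counts were scaled by TMM (factors 0.915 to 1.16) and fitted with edgeR 4.0.16 in R 4.3.3 as 1 model with 10 group means and 20 residual degrees of freedom, tested by the quasi-likelihood test, and adjusted by Benjamini-Hochberg over all tested genes (call at 0.1). Library totals, 3625884 to 14735127 counts, set the precision, and limits for counts of 0 use 3 counts and cover counting error only. The fit was tested on simulated data.

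All 10 genes are named whatever their values; of each list the 2 highest and 2 lowest tested genes at 7 DAD are named, and of the genes with a mean of at least 10 counts those with the highest correlation of log2 CPM group means (5 for ADH1, 3 for PDC1, ALDH2B7 and ACS). The members and lists were chosen with earlier results of these data known. Alternatives were DESeq2 1.42.0 with its Wald test, DESeq2 size factors, library totals, no filter, the compared groups alone, a replicate block and leaving out each library. Gene models and upstream sequences came from RefSeq TAIR10.1, which matched 26720 gene identifiers (97.5%) and all 10 genes, and similar transcripts were sought with BLAST 2.17.0.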

Additional observations from a re-analysis of the deposited data

Results flagged for a closer look

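The drought responses of 6 genes differed between ethanol and water in the edgeR test of the difference itself, in log2 units as ethanol minus water. Between 7 and 0 DAD the differences were -4.87 for ADH1, 0.83 for ADH2, -0.94 for PDC2, -2.0 for ALDH2B4, -1.66 for ALDH2B7 and -0.86 for ALDH2C4. Without water 0 DAD replicate 1 that of ADH1 was -5.51. Between 7 and 5 DAD they were -4.61 for ADH1, 0.73 for ADH2, -0.62 for PDC2, -1.76 for ALDH2B4, -1.91 for ALDH2B7 and -0.85 for ALDH2C4. The difference of PDC2 between 7 and 5 DAD lost its call in 7 of 18 alternative fits: with library totals (-0.41), with the compared groups alone (-0.60) and without water 5 DAD replicate 3 (-0.48), water 7 DAD replicate 3 (-0.45), ethanol 5 DAD replicate 1 (-0.59) or ethanol 7 DAD replicate 2 (-0.43) or 3 (-0.56).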

How the results depend on the processing

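Of 804 alternative values of called comparisons of the 9 genes, 723 kept direction and call, 81 lost the call and 0 changed sign. Of 1410 alternative values of comparisons not called, 99 changed sign and 14 gained a call. In ethanol against water at 7 DAD, ADH1, ADH2, ALDH2B4, ALDH2B7 and ALDH2C4 kept their calls in all 12 alternatives. The number of the 9 genes called ranged, without 1 library, over 1 to 3 for water 1 DAD, 1 to 4 for water 3 DAD, 3 to 5 for water 5 DAD, 2 to 4 for ethanol 1 DAD and 3 to 5 for ethanol 7 DAD, each against 0 DAD, and over 0 to 2 for ethanol 7 against 5 DAD. With the compared groups alone it was 1 for water 3 DAD against 0 DAD (3 in the fit reported) and 0 for ethanol 7 against 5 DAD. With library totals it was 5 for ethanol 5 DAD against 0 DAD (3 in the fit reported) and 0 for ethanol 7 against 5 DAD. Over all tested genes, calls at 0 DAD between ethanol and water numbered 330, but 592 with the DESeq2 Wald test, 77 with the compared groups alone and 67 to 335 without 1 library (67 without water 0 DAD replicate 2). At 3 DAD they numbered 191, but 43 to 311 when 1 library was left out (ethanol 3 DAD replicate 1 gave 43, replicate 3 gave 311). At 5 DAD they numbered 0, but 11 with the DESeq2 Wald test, 5 without the filter or with the compared groups alone and 2 with a replicate block. For the average over 0 to 5 DAD they numbered 96, but 362 with the DESeq2 Wald test, 235 with the compared groups alone and 24 to 169 when 1 library was left out (water 0 DAD replicate 2 gave 24, ethanol 3 DAD replicate 3 gave 169), and for ethanol 7 against 5 DAD 1636, but 790 with the compared groups alone and 797 to 2174 when 1 library was left out (ethanol 5 DAD replicate 3 gave 797). For water 1 against 0 DAD they numbered 2480, but 1374 without water 0 DAD replicate 1. Library totals moved the split of higher and lower calls to 5910 and 2470 for ethanol 7 against 0 DAD (4235 and 3758 in the fit reported), to 4482 and 2338 for ethanol 5 against 0 DAD (3241 and 3160) and to 4332 and 2352 for water 5 against 0 DAD (3126 and 3232). The causes were not tested. Replicate numbers were not used as pairs in the fit reported. Of 15 same-numbered pairs of ethanol and water libraries, 2 correlated over 0.1 (-0.0974 to 0.212). At 0 DAD replicates 1, 2 and 3 had 0.212, 0.0331 and 0.0805. The correlations were taken after each group's mean was subtracted. The mean with the other numbers then nearly follows from the same-numbered value, so it is no separate evidence on pairing. The same-numbered correlations were all positive at 3 DAD too, and all negative at 1 DAD. A replicate effect at single harvests was not tested. With the replicate block 6 of the 9 genes were called at 7 DAD (PDC1 -1.13, adjusted p 0.124), 2 at water 1 DAD (PDC1 -1.70, adjusted p 0.105) and 2 at water 3 DAD (PDC1 -1.60, adjusted p 0.106) against 0 DAD.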
